A study of Mus musculus with 4 samples.

Results

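The genes described here are 8 basic helix-loop-helix (bHLH) transcription factors that drive neurogenesis, namely the neurogenins Neurog1, Neurog2 and Neurog3, the NeuroD factors Neurod1, Neurod2, Neurod4 and Neurod6, and the atonal factor Atoh1, together with 2 markers of neurons, Dcx (doublecortin) and Rbfox3 (NeuN). They were chosen by gene symbol, as array features whose annotation names 1 of these symbols only. All 10 genes were found among the 19083 named genes of the array, on 14 features, and 7 of the 10 rest on 1 feature each. The values compare 2 populations of mouse embryonic stem (ES) cells, shFmr1 cells, in which a short hairpin RNA is directed at exon 1 of Fmr1, and shCT cells, whose hairpin has a random sequence. Both populations received their hairpin by a lentivirus that also makes GFP, were sorted by flow cytometry and were kept as mixed, non-clonal lines, and the labels give neither a strain nor an age nor a sex. There were 4 Agilent 2-colour arrays, replicates 1 to 4, each with 1 shFmr1 RNA and 1 shCT RNA (0.2 µg, RNA integrity number 9). On replicates 1 and 3 the dye of the shFmr1 RNA was Cy5, and on replicates 2 and 4 it was Cy3. Whether the replicates are separate cultures is not stated in the labels, so the spread behind each p-value may be technical.

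Proneural bHLH factors pair with E proteins (Tcf3, Tcf4, Tcf12) and bind E boxes in the DNA. Neurogenins and Atoh1 act early, in dividing progenitors, where they start the neuronal programme and switch on Notch ligands in the same cell. NeuroD factors follow in cells that are leaving the cell cycle, and Dcx and Rbfox3 come later, in migrating and mature neurons. Id proteins and HES repressors hold the programme back in progenitors. The series is titled around the role in neurogenesis of FMRP, an RNA-binding protein and the product of Fmr1, and these genes are part of that question.

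The 4 promoters shown belong to the members with the largest mean ratio (Neurod1), the smallest p-value (Neurog1), the lowest mean (Neurod2) and the widest spread between arrays (Neurod6). Each run gives the 250 bases before the RefSeq start on build GRCm38.p6, 5′ to 3′ on the strand of the gene, and capitals mark E boxes (CANNTG, the same on both strands). The windows are chr13:56252181-56252430 on the minus strand for Neurog1, chr2:79456637-79456886 on the minus strand for Neurod1, chr11:98329646-98329895 on the minus strand for Neurod2 and chr6:55681264-55681513 on the minus strand for Neurod6.
Neurog1: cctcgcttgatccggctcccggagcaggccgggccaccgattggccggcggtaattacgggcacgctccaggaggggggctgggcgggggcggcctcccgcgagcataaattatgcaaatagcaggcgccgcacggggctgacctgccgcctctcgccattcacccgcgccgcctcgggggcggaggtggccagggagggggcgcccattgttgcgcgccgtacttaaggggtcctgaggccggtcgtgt
Neurod1: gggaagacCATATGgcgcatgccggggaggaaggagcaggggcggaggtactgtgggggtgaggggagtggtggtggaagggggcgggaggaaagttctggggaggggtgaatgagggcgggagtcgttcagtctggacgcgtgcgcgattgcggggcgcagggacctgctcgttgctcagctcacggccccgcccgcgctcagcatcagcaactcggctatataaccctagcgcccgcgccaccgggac
Neurod2: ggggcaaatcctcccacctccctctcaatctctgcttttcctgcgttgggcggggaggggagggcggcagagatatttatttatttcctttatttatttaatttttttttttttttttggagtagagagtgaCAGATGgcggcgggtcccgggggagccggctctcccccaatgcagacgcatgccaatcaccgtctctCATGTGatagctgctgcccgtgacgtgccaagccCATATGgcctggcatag
Neurod6: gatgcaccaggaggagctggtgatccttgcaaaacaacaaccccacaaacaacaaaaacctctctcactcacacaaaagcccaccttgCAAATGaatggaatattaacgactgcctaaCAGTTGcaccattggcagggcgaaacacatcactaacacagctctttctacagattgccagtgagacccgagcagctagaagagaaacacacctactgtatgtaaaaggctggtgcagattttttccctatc

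The Neurog1 window held 0 E boxes, that of Neurod1 1, that of Neurod6 2 and that of Neurod2 3. One of the Neurod2 matches is CAGATG, which reads CATCTG on the other strand, a form that neurogenins and NeuroD factors are known to bind. The promoter set used here gave 12 windows for the 10 members, 2 of them having 2 windows each. Of the 12 windows, 5 held a CANNTG, against 66.2% of 32851 mouse promoter windows of the same length. The members with 2 windows are Neurod4 and Dcx. The 2 windows of each overlap and hold 0 E boxes, so the 12 windows are not separate stretches. Windows of Neurog2, Rbfox3, Neurod4 and Dcx lie wholly or partly inside the RefSeq span of their gene. The Rbfox3 window, chr11:118761042-118761291 on the minus strand, lies far inside a span that ends at 118911597. It is among the 5 with a CANNTG. Further starts of these genes may thus not be covered. CAGATG was found in 1 of the 12 windows and in 14.4% of all windows. CAGCTG, which reads the same on both strands, was found in 1 of the 12, that of Neurog3, and in 13.0% of all. Both of these motifs are also forms of CANNTG. These matches describe letters in the windows only.

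All values are the log ratios that the authors deposited, read as log2 ratios of shFmr1 over shCT and averaged over the features of a gene. The log base is not stated, and if the values were natural logs the median of the members would be 0.11 in place of 0.08 on the log2 scale. The direction is not stated either. Fmr1, the targeted gene, was negative on every array in both dye orientations, at -0.86, -1.65, -1.34 and -1.61 in replicate order, so shFmr1 over shCT is called the likely direction. Its mean of -1.37 ± 0.36 (SD, n = 4), read as log2 in that direction, leaves 38.8% of the control level. Since the direction was taken from Fmr1, the sign of Fmr1 is no separate evidence of a knockdown. The Fmr1 mean is an average of 2 features, which were both negative on every array but had means of -1.81 and -0.93. If the values were natural logs, the mean of Fmr1 would be -1.97 on the log2 scale. The exact two-sided sign-flip permutation test for Fmr1 gave p = 0.125, the smallest that 4 arrays allow. With limma, the test fitted across all genes, the adjusted p of Fmr1 was 0.156. The deposited table holds ratios without channel intensities, so neither the level of a member in ES cells nor its detection above background can be given, and the labelled cell type could not be checked by marker levels. In RNA from whole cultures, a change in the number of cells of a type and a change in RNA per cell cannot be told apart.

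None of the 10 members passed the limma test (adjusted p of at least 0.973), and none had an unadjusted p under 0.05. Over all genes, 0% passed at an adjusted p of 0.05 and 3.77% had an unadjusted p under 0.05. The means of the members ran from -0.18 for Neurod2 to 0.24 for Neurod1, with 7 above 0 and 3 below, and 49.5% of all genes had a mean above 0. Their median was 0.08, beside a median of 0.00 over all genes. Of the 10 members, 3 had the same sign on all arrays and all 3 were positive, beside 5.37% of all genes positive on all arrays, 5.88% negative on all and 11.3% with 1 sign in either direction. Those 3 were Neurog1, Neurog3 and Dcx, and their p-values are given with their values.

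**Figure D1:**
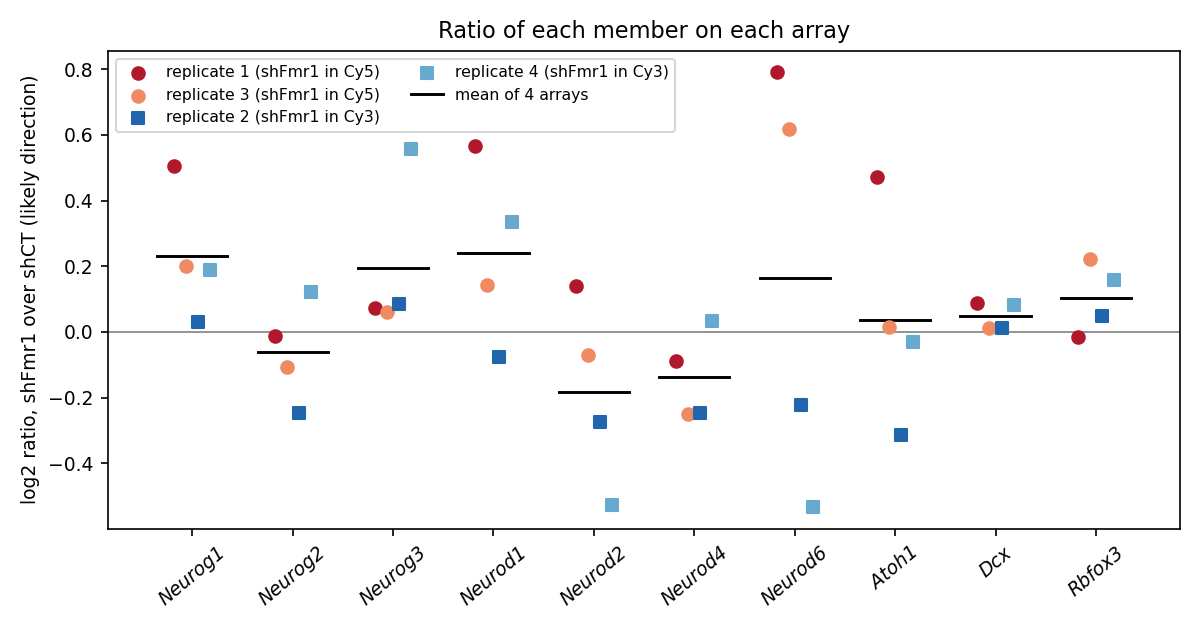
Log2 ratio of shFmr1 over shCT (likely direction, vertical axis) for each of the 10 members on each of the 4 arrays, with circles for shFmr1 in Cy5, squares for shFmr1 in Cy3 and a bar for the mean. The 4 points of most members straddle 0, those of Neurod6 split by dye, and those of Dcx lie between 0.01 and 0.09.

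Among the neurogenins, Neurog1, a determination factor for sensory neurons and other early neurons, read 0.51, 0.03, 0.20 and 0.19 on replicates 1 to 4. All of its values lay above 0, the highest on replicate 1. Its mean of 0.23 ± 0.20 (SD, n = 4) had the smallest p-value of the members (limma unadjusted p = 0.0530, adjusted p = 0.973) and ranked 768th among the p-values of all genes. The 95% confidence interval ran from -0.004 to 0.47, or up to 1.38-fold of the control level.

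Neurog2, the neurogenin of cortical and spinal progenitors, read -0.01, -0.25, -0.11 and 0.12. One array of 4 was positive, and the mean of -0.06 ± 0.16 (SD, n = 4) was smaller than the spread. Without replicate 2 the sign turned, to 0.03 with the dye term kept. Neurog3, which also specifies the endocrine cells of the pancreas and gut, read 0.07, 0.08, 0.06 and 0.56. The mean of 0.19 ± 0.24 (SD, n = 4) rests on replicate 4, since the other 3 arrays lay between 0.06 and 0.08. Without replicate 4, in the fit with no dye term, it was 0.07. Neurog3 is measured by 1 feature, so no second feature bears on that array.

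In the NeuroD group, Neurod1, a factor of neuronal differentiation that is also active in pancreatic islets, had the largest mean. It read 0.56, -0.08, 0.14 and 0.34, with 3 arrays above 0 and replicate 2 just below. The mean was 0.24 ± 0.27 (SD, n = 4), with a 95% confidence interval from -0.05 to 0.53 and a limma adjusted p of 0.973. Neurod4 (also called Math3), which acts with other proneural factors in the retina and hindbrain, read -0.09, -0.25, -0.25 and 0.03. Of the 4 arrays, 3 were below 0, and the mean was -0.14 ± 0.14 (SD, n = 4, limma adjusted p = 0.973).

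Neurod2, a factor of maturing cortical neurons, read 0.14, -0.27, -0.07 and -0.53. Its mean of -0.18 ± 0.29 (SD, n = 4) was the lowest of the members. The 2 arrays with shFmr1 in Cy5 averaged 0.03 and the 2 with shFmr1 in Cy3 -0.40. Both of its features had the same sign on each of the 4 arrays, and they differed by 0.05 to 0.37. The pattern over arrays was thus seen by 2 features, both annotated to the same transcript and read on the same arrays. They are therefore not independent measurements of it.

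Neurod6, which marks excitatory neurons of the cortex, varied most. It read 0.79 and 0.62 on replicates 1 and 3, with shFmr1 in Cy5, and -0.22 and -0.53 on replicates 2 and 4, with shFmr1 in Cy3. The orientations did not overlap and lay on opposite sides of 0, a pattern that 16.9% of all genes showed. The gap between the orientation means, 0.70 in Cy5 and -0.38 in Cy3, was 1.08, and the dye coefficient had an unadjusted limma p of 0.00146 but an adjusted p of 0.730. If the ratios run as shFmr1 over shCT, the Cy5 channel was the brighter one for this gene on all 4 arrays, whichever RNA it held. If they run the other way, Cy3 was. The shFmr1 coefficient itself was 0.16 ± 0.64 (SD, n = 4), with a limma adjusted p of 0.973 and 1 feature behind it. The SD of Neurod6 over the arrays was above that of 96.9% of all genes. Its 95% confidence interval, from -0.07 to 0.40 with the dye term, widened to -0.36 to 0.69 in the fit without one.

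Atoh1, which specifies cerebellar granule cells and the hair cells of the inner ear, read 0.47, -0.31, 0.02 and -0.03. It was the other member whose orientations lay on opposite sides of 0, at means of 0.24 in Cy5 and -0.17 in Cy3, though replicates 3 and 4 were both close to 0. The mean of 0.04 ± 0.33 (SD, n = 4) was far smaller than the spread, and it turned to -0.08 without replicate 1 with the dye term kept.

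**Figure D2:**
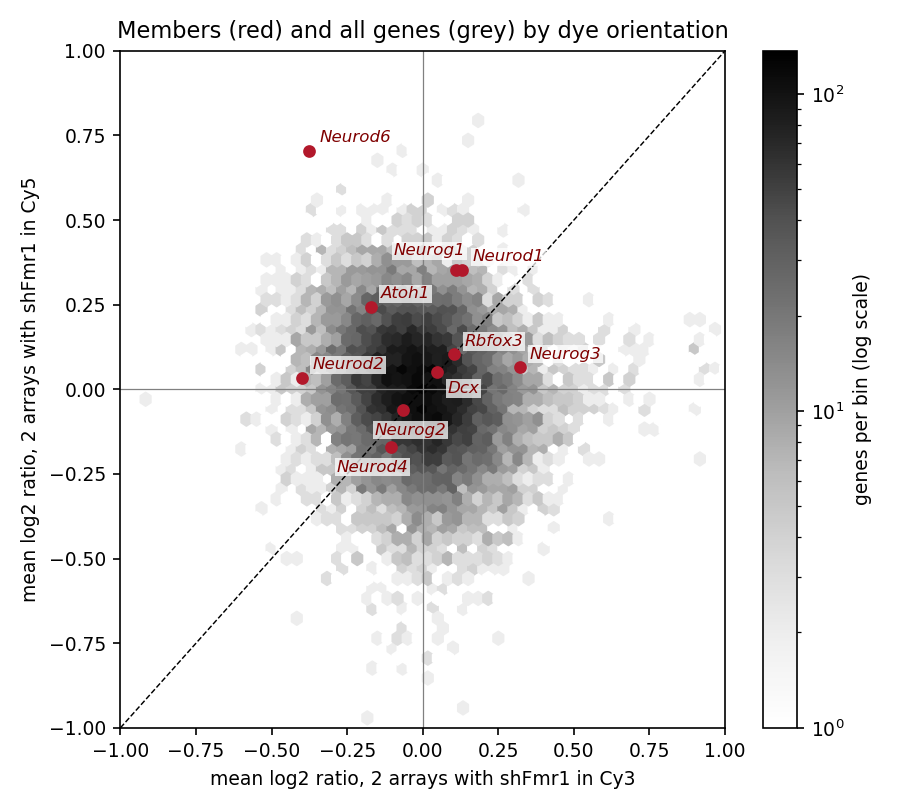
Mean log2 ratio over the 2 arrays with shFmr1 in Cy5 (vertical axis) against the mean over the 2 arrays with shFmr1 in Cy3 (horizontal axis), for the 10 members (red points) and all genes within the axes (grey bins shaded by gene number on a log scale). The dashed line marks equal values, and Neurod6, at 0.70 and -0.38, lies far from it in the upper left, while Dcx and Rbfox3 lie on it.

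Over the 10 members, 8 had a higher mean in the Cy5 orientation than in the Cy3 orientation. For Neurog2, Dcx and Rbfox3, which are among these 8, the gap was only 0.0039, 0.0038 and 0.0004. The share of all genes with a higher Cy5 mean was not counted, so the 8 of 10 cannot be set against it. The dye coefficient had an unadjusted limma p under 0.05 for 1 member, Neurod6, beside 6.49% of all genes, and an adjusted p under 0.05 for 0 members and 0% of all genes. Each orientation holds 2 arrays. The number of members above 0 was 7, 4, 7 and 7 on replicates 1 to 4, and the medians of the 8 bHLH factors were 0.31, -0.23, 0.04 and 0.08. The bHLH median was highest on replicate 1. A list of 10 markers of fibroblasts, cells that can serve as feeders of ES cultures, had a median of 0.21 with 7 above 0. It also had its highest median there, with 0.54, 0.28, 0.06 and -0.35 in replicate order. On replicate 2, where the bHLH median was lowest, the fibroblast median was above 0. A highest median on replicate 1 was also seen for doublecortin relatives and partners (0.11), RBFOX relatives (0.15) and reported proneural targets (0.06), lists described below. The part of fibroblasts in the bHLH values was not tested.

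The neuronal marker Dcx, a microtubule-binding protein of migrating neurons, read 0.09, 0.01, 0.01 and 0.08. All 4 values were above 0 and the mean was 0.05 ± 0.04 (SD, n = 4), with a 95% confidence interval from -0.16 to 0.25 and a limma adjusted p of 0.982. Only 1.05% of genes had a smaller SD over the arrays. This closeness belongs to the average of its 3 features and not to the features themselves, whose means were 0.13, -0.02 and 0.04 with SDs of 0.112, 0.129 and 0.170. On 0 of the 4 arrays did the 3 features share a sign, and they lay 0.20 to 0.36 apart.

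Rbfox3, the splicing factor known as the antigen NeuN, read -0.02, 0.05, 0.22 and 0.16. The mean was 0.10 ± 0.11 (SD, n = 4, limma adjusted p = 0.973), with 3 arrays above 0 and the 95% interval from -0.12 to 0.32. Its 2 features are annotated to different transcripts. One averaged 0.19 ± 0.23 and the other 0.02 ± 0.09 (SD, n = 4), and on replicate 4 they read 0.41 and -0.10. The larger values of Rbfox3 on replicates 3 and 4 thus came mainly from 1 feature.

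**Figure D3:**
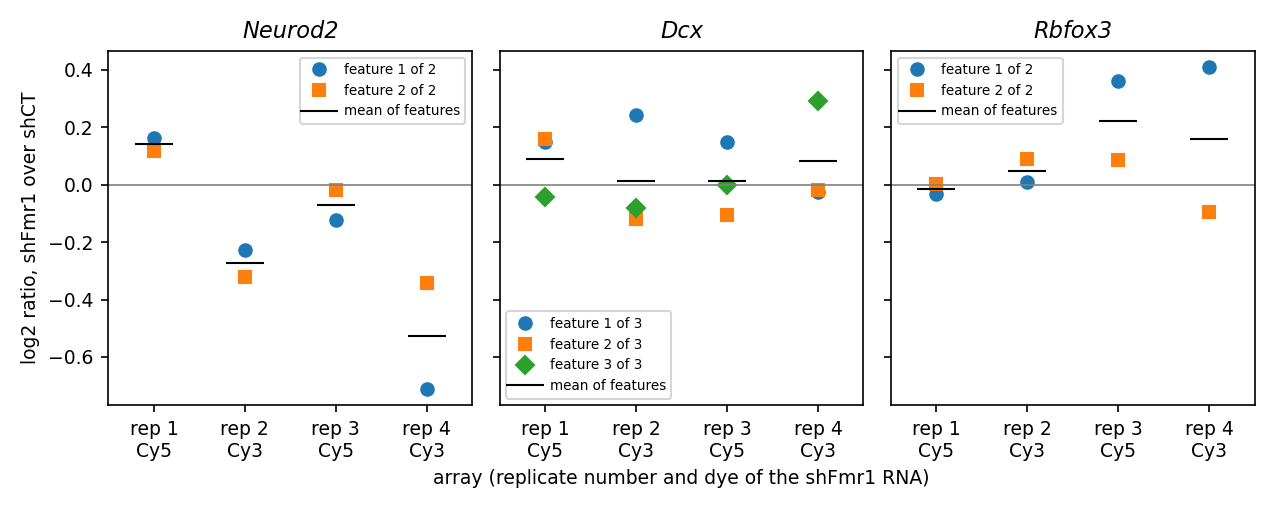
Log2 ratio of shFmr1 over shCT of each feature (coloured symbols) and their mean (bar) on the 4 arrays, for the 3 members with more than 1 feature. The features of Neurod2 follow each other over the arrays, those of Dcx lie on both sides of 0 on every array, and those of Rbfox3 differ most on replicate 4.

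In the order of their means the members were Neurod1, Neurog1, Neurog3, Neurod6, Rbfox3, Dcx, Atoh1, Neurog2, Neurod4 and Neurod2. The 95% confidence intervals of all 10 overlapped in the range from -0.004 to 0.05, so no neighbours in this order were separated by their intervals. The intervals together spanned -0.42 to 0.53. Each of the 10 lay within 2-fold in either direction, and 2-fold also bounded all 10 in the fit without a dye term, where they spanned -0.47 to 0.69. These intervals concern ratios of array signal. For a gene whose signal is mostly background they would not bound the change in its transcript.

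**Figure D4:**
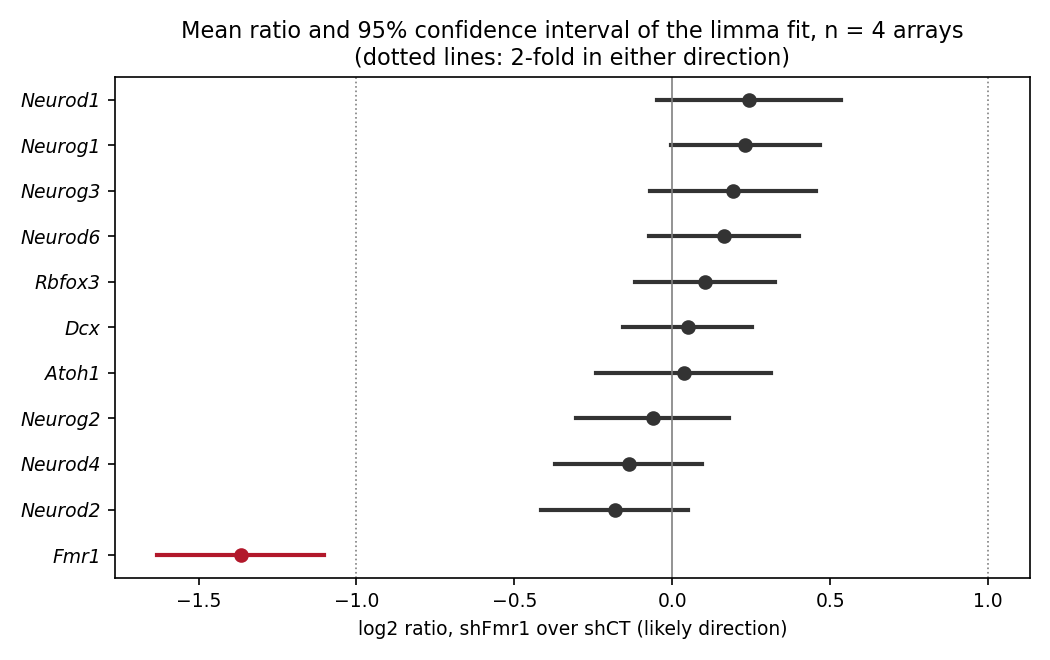
Mean log2 ratio of shFmr1 over shCT (point) with the 95% confidence interval of the limma fit with a dye term (line, n = 4 arrays) for the 10 members and, in red, Fmr1. The intervals of the members all include 0 and stay between the dotted lines at 2-fold, while that of Fmr1 runs from -1.63 to -1.10.

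The partners of the proneural factors and the Id and HES-type genes were compared next, and 0 genes of any list passed the limma test over all genes. Of the 3 E proteins, Tcf4 averaged 0.08 ± 0.19, Tcf12 -0.05 ± 0.18 and Tcf3 -0.04 ± 0.17 (SD, n = 4), each smaller than its spread. The 12 Id and HES-type genes had a median of 0.03, with 7 above 0, and no member of this list reached an unadjusted p of 0.05. Id1 and Id3 averaged -0.06 ± 0.07 and -0.09 ± 0.27, Id2 0.00 ± 0.35 and Id4 0.15 ± 0.12 (SD, n = 4). The Notch effectors Hes1 and Hes5 averaged 0.19 ± 0.21 and 0.18 ± 0.25 (SD, n = 4), and the 4 values of Hes5 were all positive.

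Among 16 measured bHLH relatives of the members the median was 0.04, with 1 gene at an unadjusted p under 0.05 in each direction, beside 1.71% of all genes toward higher and 2.05% toward lower values. They were Tal2 (0.43 ± 0.54) and Bhlhe23 (-0.25 ± 0.37, SD, n = 4), with limma adjusted p of 0.973 for both. Tal2 averaged 0.87 with shFmr1 in Cy5 and -0.02 with shFmr1 in Cy3, and Bhlhe23 -0.56 and 0.06. Each of the 2 also had an unadjusted p under 0.05 for the dye coefficient (0.00486 and 0.0126). Mesp2, a factor of somite formation, followed at -0.12 ± 0.17 (SD, n = 4).

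The 20 reported targets of proneural factors had a median of 0.00, 9 above 0. In each direction 1 gene had an unadjusted limma p under 0.05, beside 1.71% of all genes toward higher and 2.05% toward lower values. Dll1, a Notch ligand that proneural factors switch on, read 0.37, 0.40, 0.03 and 0.51. All 4 arrays were positive, and the mean over 10 features was 0.33 ± 0.21 (SD, n = 4, limma unadjusted p = 0.0157, adjusted p = 0.973). Tbr1, a factor of cortical projection neurons, was negative on all arrays at -0.24 ± 0.15 (limma adjusted p = 0.973), and Insm1, a zinc finger factor of neuronal and endocrine progenitors, averaged 0.25 ± 0.21 (SD, n = 4).

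The relatives and partners of doublecortin had a median of 0.05 over 11 genes. An unadjusted limma p under 0.05 was found for 1 of them, toward higher values, beside 1.71% of all genes. That gene was Cdk5, a kinase that acts in neuronal migration, at 0.33 ± 0.24 (SD, n = 4, limma adjusted p = 0.973), with means of 0.12 in the Cy5 and 0.53 in the Cy3 orientation. The doublecortin-like kinases Dclk1, Dclk2 and Dclk3 averaged -0.08 ± 0.20, 0.05 ± 0.27 and 0.12 ± 0.21, and the dynein regulators Pafah1b1 and Nde1 0.17 ± 0.29 and 0.16 ± 0.40 (SD, n = 4). The paralogs of Rbfox3, Rbfox1 and Rbfox2, averaged -0.10 ± 0.26 and -0.03 ± 0.15 (SD, n = 4).

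Neuron markers other than the members had a median of -0.01 over 24 genes, 12 above 0 and 12 below. Nsg2, a vesicle protein of neurons, was positive on all arrays at 0.75, 0.44, 0.50 and 0.22 (mean 0.47 ± 0.22, SD, n = 4). Stmn2, a tubulin-binding protein of growing axons, was negative on all at -0.34, -0.29, -0.11 and -0.36 (mean -0.27 ± 0.11, SD, n = 4). Both had an unadjusted limma p under 0.05 (0.00257 and 0.0221) and neither passed the adjusted test (adjusted p = 0.973 for each). Of all genes, 1.71% had such an unadjusted p toward higher and 2.05% toward lower values. Ina, an intermediate filament of neurons, averaged 0.22 ± 0.30 (SD, n = 4). The 14 measured neural progenitor markers had a median of 0.00, with 7 above 0, and the 12 pluripotency markers 0.00, with 6 above 0. An unadjusted limma p under 0.05 was found for 1 progenitor and 2 pluripotency markers, toward higher values, beside 1.71% of all genes. Toward lower values the count was 0 in both lists. Of 13 extraembryonic endoderm markers, 9 were below 0 and the median was -0.26. Of the 13, 7 had an unadjusted limma p under 0.05 toward lower values, beside 2.05% of all genes. On the arrays the medians of the endoderm markers were -0.33, -0.02, -0.23 and -0.13 in replicate order. They were thus lower on replicates 1 and 3, with shFmr1 in Cy5, than on replicates 2 and 4, with shFmr1 in Cy3. The part of the dye in these values was not tested.

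**Figure D5:**
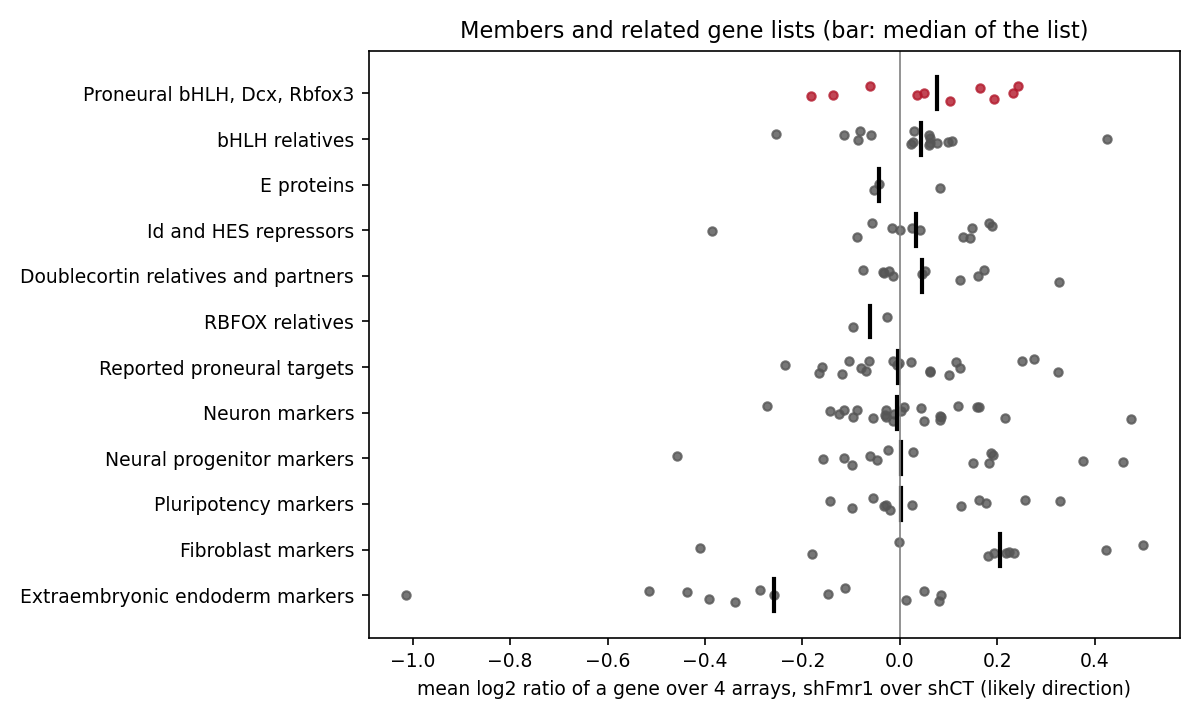
Mean log2 ratio of each gene over the 4 arrays (points, horizontal axis, shFmr1 over shCT) for the 10 members (red, top) and 11 related or marker lists (grey), with a bar at the median of each list. The members lie between -0.18 and 0.24 around a median of 0.08, and 0 of the genes drawn passed the limma test over all genes.

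The genes most like Neurog1, the member with the smallest p-value, were found by the root mean square difference of their 4 array values from those of Neurog1. They were Agap1 (0.04), Snora69 (0.05), Phf7 (0.05), Kctd5 (0.05) and Olfr153 (0.05). In all, 44 genes of the table lay within 0.1 of Neurog1 by this measure over 4 arrays, which is a description of these arrays only.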

How the data were processed

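Two-colour Agilent arrays compared shFmr1 with shCT RNA, labelled with a low-input kit, per the labels' protocols. The authors deposited 1 log ratio per feature and array, used here as log2 ratios. Not given in the sources used here: normalization, software, log base and direction. Array medians were 0.01, -0.01, 0.02 and -0.02 in replicate order, no value was missing, and absolute values reached 5.84, above the 4.82 that a log10 ratio of 16-bit counts can reach, which makes log10 unlikely. Correlations between arrays over genes were 0.0633 and 0.0438 within a dye orientation and -0.0532 to -0.0226 across. Of 45214 features, 33649 had 1 gene symbol in the platform annotation, 56 several and 11509 none, and only those with 1 symbol were used. The 10 members kept their symbols in RefSeq.

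Features were averaged per gene and array, and limma 3.58.1 in R 4.3.3 (lmFit, then eBayes) estimated an shFmr1 and a dye coefficient for each of 19083 genes. Adjusted p-values follow Benjamini-Hochberg over the whole table, read at 0.05. The fit was tested on simulated data with planted effects far larger than any member mean. That test does not bear on effects as small as the member means. Members and lists were chosen with earlier results of these data known. Of 138 listed genes 134 were measured. Named are all members and Fmr1, all E proteins, Id, RBFOX and Dclk genes, and the 3 genes with the smallest p of each other list, except that the progenitor, pluripotency, fibroblast and endoderm lists are given by counts. The alternatives changed the dye term, the centring, scaling or quantile normalization of arrays, the summary of features, the variance model (robust eBayes), the orientations used and the arrays used (each left out in turn). Precision is limited by the 4 arrays.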

Additional observations from a re-analysis of the deposited data

Results flagged for a closer look

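Among 61 results, the named genes and the list medians, 1 array lay apart from the other 3 by Dixon's criterion in 2 cases, where chance gives about 1 in 20, or 3.05. Neurog3 read 0.56 on replicate 4 and between 0.06 and 0.08 on the others. The neural progenitor markers had a median of -0.27 on replicate 3 and between 0.07 and 0.10 on the others.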

How the results depend on the processing

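The count of members past an adjusted p of 0.05 was 0 under every alternative that gave a test, and the lowest adjusted p of any member in any of them was 0.863 (Neurog3 without replicate 2, dye term kept). The count with an unadjusted p under 0.05 was 0 in all settings that kept the 4 arrays and ran from 0 to 2 with 1 array left out. It was 2 without replicate 2 (Neurog3 and Neurod1 with the dye term, Neurog1 and Neurod1 without it) and 2 without replicate 3 with the dye term (Neurog1 and Neurod1). The share of all genes with an unadjusted p under 0.05 in these fits was not counted, so these counts have no background beside them. The median of the members ran from -0.005 to 0.14 with 1 array left out, and was 0.08 in the Cy5 orientation alone and -0.009 in the Cy3 orientation alone. In the single orientations, which allow no test, Neurod2 turned to 0.0347 (Cy5), Neurod6 to -0.38 (Cy3) and Atoh1 to -0.17 (Cy3), 3 of 90 member values outside the fits that leave out an array. With 1 array left out, Neurog2 ran from -0.15 to 0.03 (0.0302 with the dye term and 0.000132 without it when replicate 2 was left out). Neurod6 ran from -0.05 to 0.40 (-0.0451 without replicate 1, no dye term). Atoh1 ran from -0.11 to 0.15 (-0.0787 with the dye term and -0.110 without it when replicate 1 was left out, -0.0351 without replicate 4, dye term kept). The other 7 members kept their sign in these 8 fits, with Neurog1 at 0.14 to 0.31, Neurog3 at 0.07 to 0.31, Neurod1 at 0.13 to 0.35, Neurod2 at -0.29 to -0.07, Neurod4 at -0.21 to -0.07, Dcx at 0.03 to 0.07 and Rbfox3 at 0.04 to 0.16. Fmr1 passed with quantile normalization (-1.63, limma adjusted p = 0.0226) and, with the dye term, without replicate 1 (-1.49, adjusted p = 0.0382) or replicate 2 (-1.36, adjusted p = 0.0327), and ran from -1.54 to -1.25 with 1 array left out. Its adjusted p ran from 0.0226 to 1.00 over all settings. The natural-log reading was added after the data had been seen. For the changes listed here the cause was not tested. Each value is already the ratio of a same-numbered pair of RNAs, so the tests on these ratios are paired by array, and no further pairing was added. Signal over background was not analysed here.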
